A study of Rattus norvegicus with 4 samples.

Results

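Digestive enzymes of the pancreatic type were followed in the oxyntic mucosa of the rat, the gastric lining that secretes acid, after treatment with octreotide LAR or its vehicle. The 9 genes are Clps, Pla2g1b, Cel, Pnlip, Cela2a, Cpa1, Ctrb1, Prss1 and Amy2a3, and each was represented by 1 probe set that names it alone, out of 15866 probe sets on the array. They were chosen by symbol as bright and dim representatives of 1 functional class, with the signals of these chips already known, so their levels are given as a description, with no test. Of the 9 probe sets, 6 were bright enough to be tested, as part of the 9520 tested on the whole array; Prss1, Pnlip and Amy2a3 lay under that level. A further probe set names both Amy2a3 and Amy1; it is described beside Amy2a3 and is not counted among the 9.

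All animals were female Sprague-Dawley rats, 8 weeks old per the labels. The control group received the vehicle of the depot, and RNA from 8 of these rats was pooled on 1 Affymetrix chip. The treated group received octreotide LAR at 5 mg per animal, and RNA from pairs of its 6 rats was hybridised to 3 chips, called pools 1 to 3 here. Mucosa was scraped off at 21 days, after a night without food, and the tissue is named gastric mucosa of the corpus in the control sample's labels and oxyntic mucosa in those of the treated samples. The title of the control sample gives vehicle, while its source name mentions octreotide LAR; its group was taken from the title. Octreotide mimics the peptide somatostatin and lasts longer in the body, and LAR is its slow-release form. No strain, age, sex or feeding difference between the groups is given in the labels. The spread between the treated chips joins differences between pairs of rats with technical error. The vehicle value is a single measurement of a larger pool, and a peculiarity of that pool cannot be told apart from an effect of treatment.

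Pancreatic acinar cells secrete a juice of proteases, lipases and amylase that act in the small intestine, most of the proteases as inactive zymogens. Colipase anchors pancreatic lipase to fat droplets coated with bile salts, phospholipase A2 of group IB cuts phospholipids, and the bile salt-stimulated lipase hydrolyses cholesterol esters and other lipid esters. In the acinar cell, many of these genes are controlled by PTF1, a complex of transcription factors built around Ptf1a. PTF1 binds an E-box and a nearby TC box. The gastric chief cell is likewise a zymogen-secreting cell, and its main product is pepsinogen. Somatostatin restrains the secretion of both the stomach and the pancreas.

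Promoter windows, from 250 bases before to 50 bases after the annotated gene start, were taken from the RefSeq table of the GRCr8 assembly, which held 7 of the 9 genes (all but Clps and Cela2a). The windows of Cel and Cpa1 are shown because these 2 genes had among the lowest differences on the array, and those of Pla2g1b and Ctrb1 because these probe sets were bright on every chip and stayed closer to their vehicle signal. Letters run 5′ to 3′ on the strand of the gene. Capitals mark the E-box CACCTG and the TC box TTTCCC, each searched on both strands, and the TATA box TATAAA, searched on the strand of the gene. On the opposite strand the E-box and TC box read CAGGTG and GGGAAA.
Cel, chr3:32288970-32289269, minus strand: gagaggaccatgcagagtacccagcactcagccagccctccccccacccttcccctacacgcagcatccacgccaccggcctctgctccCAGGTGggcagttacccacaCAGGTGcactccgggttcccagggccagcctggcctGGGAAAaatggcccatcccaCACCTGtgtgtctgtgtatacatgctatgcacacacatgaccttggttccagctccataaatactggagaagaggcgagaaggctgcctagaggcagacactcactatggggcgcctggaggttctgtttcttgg
Cpa1, chr4:60224551-60224850, plus strand: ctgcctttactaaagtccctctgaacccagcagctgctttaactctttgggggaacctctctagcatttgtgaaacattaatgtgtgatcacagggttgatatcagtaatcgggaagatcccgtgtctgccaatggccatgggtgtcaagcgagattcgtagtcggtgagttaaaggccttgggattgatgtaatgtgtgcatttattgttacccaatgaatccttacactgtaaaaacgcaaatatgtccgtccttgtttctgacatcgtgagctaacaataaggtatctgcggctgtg
Pla2g1b, chr12:46812604-46812903, minus strand: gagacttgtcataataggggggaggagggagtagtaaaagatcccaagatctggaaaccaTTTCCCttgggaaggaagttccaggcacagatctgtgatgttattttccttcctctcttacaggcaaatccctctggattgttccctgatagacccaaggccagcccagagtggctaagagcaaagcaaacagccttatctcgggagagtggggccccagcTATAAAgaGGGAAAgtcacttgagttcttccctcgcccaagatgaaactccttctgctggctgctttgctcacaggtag
Ctrb1, chr19:56566929-56567228, minus strand: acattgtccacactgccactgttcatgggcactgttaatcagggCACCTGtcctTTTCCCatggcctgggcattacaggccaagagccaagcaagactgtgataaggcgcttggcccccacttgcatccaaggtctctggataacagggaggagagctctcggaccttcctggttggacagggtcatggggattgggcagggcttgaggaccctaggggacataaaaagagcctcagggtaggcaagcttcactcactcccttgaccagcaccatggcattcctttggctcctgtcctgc

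The E-box letters were found in 3 of the 7 windows (Cel, Prss1 and Ctrb1), against 18.8% of the 33469 windows in the table. The TC box letters were found in 6 of the 7, all but Cpa1, against 25.1%. The exact letters TATAAA were found in 4 (Pnlip, Amy2a3, Prss1 and Pla2g1b), against 8.8%. Variants of the TATA box were not searched, so a window without these letters is not shown to lack one. Cel held 3 E-boxes and 1 TC box. Ctrb1 held its E-box and TC box on 1 strand with 4 bases between them. The run CACCTGNNNNTTTCCC, searched on both strands after those of Ctrb1 had been seen, was present in 9 of the 33469 windows (0.0269%), and among the 7 genes in Ctrb1 alone. The window of Cpa1 held none of the 3 motifs, which says only that these letters are not in it. These matches are letters in a window and were not tested as sites.

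The 9 genes spread over the whole brightness range of the chip. Probe sets bind their targets with unequal strength, so a signal is read here across chips within 1 probe set. A rank says where a probe set lay among all probe sets and not how much RNA a gene had relative to another. Ranks are counted from the brightest of 15866.

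Clps encodes colipase. Its signal was 48788.7 on the vehicle chip and 47578.8, 49879.2 and 39440.0 on pools 1, 2 and 3. It ranked 3rd on the vehicle chip and 4th, 5th and 7th on the treated pools. Pool 2 lay above the vehicle chip and the others below it, so the groups overlapped. Pla2g1b encodes the group IB phospholipase A2. Its signal was 54590.2 on the vehicle chip and 61118.5, 58112.6 and 46898.6 on pools 1, 2 and 3, where it ranked 2nd, 2nd, 1st and 3rd in that order of chips. Pools 1 and 2 lay above the vehicle chip and pool 3 below it. Both genes were lowest on pool 3. Signals at the very top of the chip can be compressed, and saturation was not examined here.

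Ctrb1 encodes a chymotrypsinogen, the zymogen of a protease that cuts after aromatic residues. Its signal was 3107.2 on the vehicle chip and 2545.0, 2745.3 and 2059.7 on pools 1, 2 and 3. Every treated pool lay below the vehicle chip, at 66.3% to 88.4% of its signal. On all 4 chips the probe set was among the brightest 7%, between percentiles 93.7 and 96.1.

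Cel, Cela2a and Cpa1 had middling signals. Cel encodes the bile salt-stimulated lipase, also called carboxyl ester lipase. Its signal was 729.9 on the vehicle chip and 245.9, 212.0 and 363.6 on pools 1, 2 and 3, so the treated pools held 29.0% to 49.8% of the vehicle signal. Cela2a encodes a pancreatic elastase, a serine protease. Its signal was 612.5 on the vehicle chip and 225.5, 267.8 and 174.2 on pools 1, 2 and 3, or 28.4% to 43.7% of the vehicle signal. Cpa1 encodes carboxypeptidase A1, which removes residues from the carboxyl end of peptides. Its signal was 602.2 on the vehicle chip and 151.5, 201.5 and 349.0 on pools 1, 2 and 3, or 25.2% to 58.0% of the vehicle signal. For all 3 genes every treated pool lay below the vehicle chip. The order of the pools differed between them: pool 3 was the highest treated pool for Cel and Cpa1 and the lowest for Cela2a. In percentiles of the chip, Cel went from 78.8 on the vehicle chip to between 47.5 and 61.4 on the treated pools, Cela2a from 75.03 to between 43.9 and 53.6, and Cpa1 from 74.7 to between 40.3 and 60.5.

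**Figure D1:**
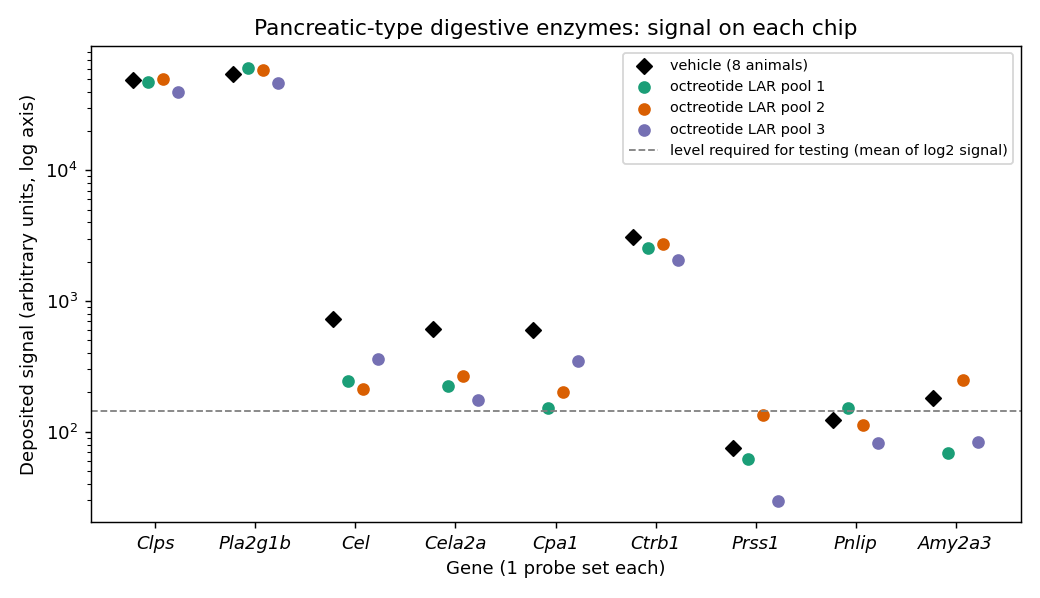
Deposited signal (arbitrary units, log axis) of the 9 genes, 1 probe set each, with a diamond for the vehicle chip and a circle for each octreotide LAR pool; the dashed line is a signal of 144.7, the level that the mean of log2(signal + 16) over all chips had to reach, on that scale, for testing. For Cel, Cela2a, Cpa1 and Ctrb1 all circles lie below the diamond, while for Clps and Pla2g1b they lie on both sides; heights of different genes are not comparable as amounts of RNA.

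Pnlip, Prss1 and Amy2a3 were dim. Pnlip encodes the classical pancreatic lipase, the partner of colipase. Its signal was 122.4 on the vehicle chip and 152.1, 113.5 and 82.2 on pools 1, 2 and 3, on both sides of the vehicle value. Prss1 encodes a trypsinogen, the zymogen of the protease that activates the others in the gut. Its signal was 74.8 on the vehicle chip and 61.7, 135.2 and 29.8 on the treated pools, again on both sides. Trypsinogens form a family of similar genes, so a probe set for one may also bind others. Detection calls were not used here, so no gene is called absent. The pools differed widely at this level. The treated SD on the log2 scale was 0.86 for Prss1 and 0.39 for Pnlip, where the median over the 3174 probe sets between the 20th and 40th percentile of mean signal was 0.41.

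Amy2a3 encodes a pancreatic amylase, which cuts starch. Its signal was 182.2 on the vehicle chip and 69.1, 249.6 and 84.3 on pools 1, 2 and 3. The probe set that names both Amy2a3 and Amy1, the latter a salivary-type amylase, had 763.8 on the vehicle chip and 147.4, 1123.9 and 307.3 on the pools. Both probe sets followed the same order of chips: pool 2 highest, then the vehicle chip, pool 3 and pool 1. The treated pools thus spanned the vehicle value for amylase, and their SD on the log2 scale was 0.89 and 1.42. The probe set of both amylases differed by -0.99 on the log2 scale (95% interval -2.44 to 0.46) and was not called (limma adjusted p = 0.9998). The value depended on single pools: without pool 2 the difference was -1.76 and the call was made (limma adjusted p = 1.17e-05), without pool 1 it was -0.36 (limma adjusted p = 0.94), without pool 3 it was -0.85 (limma adjusted p = 0.63), and the adjusted p over its 10 alternatives ran from 1.17e-05 to 0.999995. No such opposition of pool 2 to pools 1 and 3 was seen in Cel, Cela2a or Cpa1, which were below the vehicle chip on pool 2 as well.

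The comparison of octreotide LAR with vehicle asks which transcripts of the mucosa differ after 21 days of the depot. Differences are given on the scale log2(signal + 16), which understates the change of dim genes, and each was fitted by limma over all 9520 tested probe sets with Benjamini-Hochberg adjustment. None of the 6 tested genes of the set was called at an adjusted p under 0.05, a threshold that 0.105% of the tested probe sets passed (10 of 9520, while 435 had an unadjusted p under 0.05). At an unadjusted p under 0.05, 3 of the 6 were lower (Cel, Cela2a and Cpa1), against 1.71% of the tested probe sets; the genes were chosen with these values known, so nothing is read from that count. Without the requirement on brightness, 4 of the 9 lay below the vehicle chip on every treated pool (Cel, Cela2a, Cpa1 and Ctrb1), against 24.0% of all 15866 probe sets, and 0 of the 9 lay above it on every pool, against 24.4% of all probe sets. On the scale of signal + 16, Cela2a alone was at least 2-fold lower on every pool. The same held for 0.756% of all probe sets and 0.0315% of those tested. Cel missed this on pool 3, with a log2 difference of -0.97, and Cpa1 on pool 3, with -0.76. In the signal itself Cel was also at least 2-fold lower on every pool, at 49.8% of the vehicle chip on pool 3. The median difference of the 9 was -0.35, and the median over all 15866 probe sets was -0.01. By pool, the median of the 9 was -0.29, -0.10 and -0.76 on pools 1, 2 and 3, and that of all probe sets was -0.01, 0.01 and -0.01.

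Cela2a differed by -1.42 on the log2 scale (95% interval -2.07 to -0.76), a 2.67-fold lower mean that did not pass over all probe sets (limma adjusted p = 0.17). Its pools were at -1.38, -1.15 and -1.72. Cel had -1.40 (interval -2.06 to -0.74; limma adjusted p = 0.17), and its pools were at -1.51, -1.71 and -0.97. Cpa1 had -1.38 (interval -2.19 to -0.58; limma adjusted p = 0.46), and its pools were at -1.88, -1.51 and -0.76. Counted from the lowest of the 9520 tested differences, these were in places 3, 4 and 5, after the chief cell protease Cym and the histidine decarboxylase Hdc. The treated SD on the log2 scale was 0.29 for Cela2a, 0.38 for Cel and 0.57 for Cpa1, above the median of 0.20 over the 2381 probe sets between the 55th and 70th percentile of mean signal. The differences were therefore larger than the spread between pools, but that spread was itself wide for this brightness. Leaving out a pool turned the calls. For Cela2a leaving out pool 1 gave a limma adjusted p of 0.0044, leaving out pool 2 gave 0.00072 and leaving out pool 3 gave 0.047. For Cel these were 0.0032, 0.0056 and 0.0011 in the same order. For Cpa1 they were 0.044, 0.0069 and 0.0022. Each such fit has the same single control and estimates the spread from 2 treated chips, and 31 to 55 probe sets of 9520 then passed in place of 10, so these passes are no firmer evidence. The largest adjusted p among the 10 alternatives was 0.84 for Cela2a and Cel and 0.95 for Cpa1, and the log2 difference stayed between -1.70 and -1.13 for the 3 genes. A lower signal in this bulk tissue may mean fewer cells of a type or less RNA per cell, and these cannot be told apart.

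Ctrb1 differed by -0.35 (95% interval -0.76 to 0.06) and was not called (limma adjusted p = 0.9998). Its pools were at -0.29, -0.18 and -0.59, and without pool 3 it differed by -0.23. Clps differed by -0.10 (interval -0.45 to 0.25) and Pla2g1b by 0.01 (interval -0.35 to 0.37; limma adjusted p = 0.9998 for both). Without a pool, Clps ran from -0.17 to -0.0022. The sign of Pla2g1b has no standing, since it turned to -0.02 with quantile normalization and to -0.06 and -0.03 without pools 1 and 2. On the log2 scale the intervals run down to -0.45 for Clps and to -0.35 for Pla2g1b. They do not cover compression of signals at the top of the chip or a peculiarity of the single vehicle pool. A larger change in RNA is therefore not excluded for these 2 genes. For the dim genes, fitted without the requirement on brightness, the log2 difference was -0.10 for Pnlip (interval -1.27 to 1.07), -0.16 for Prss1 (-1.83 to 1.51) and -0.59 for Amy2a3 (-2.18 to 0.99). All 3 intervals include 0. Those of Prss1 and Amy2a3 also hold the log2 difference fitted for Cel, while that of Pnlip ends short of that value. The log2 scale used here understates the change of dim genes. The interval of Pnlip therefore does not exclude a fall in signal proportionally as large as that of Cel. The sign turned without pool 3 for Prss1 (0.26) and Pnlip (0.09), and Amy2a3 was at -1.10 without pool 2 and at -0.28 without pool 1.

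**Figure D2:**
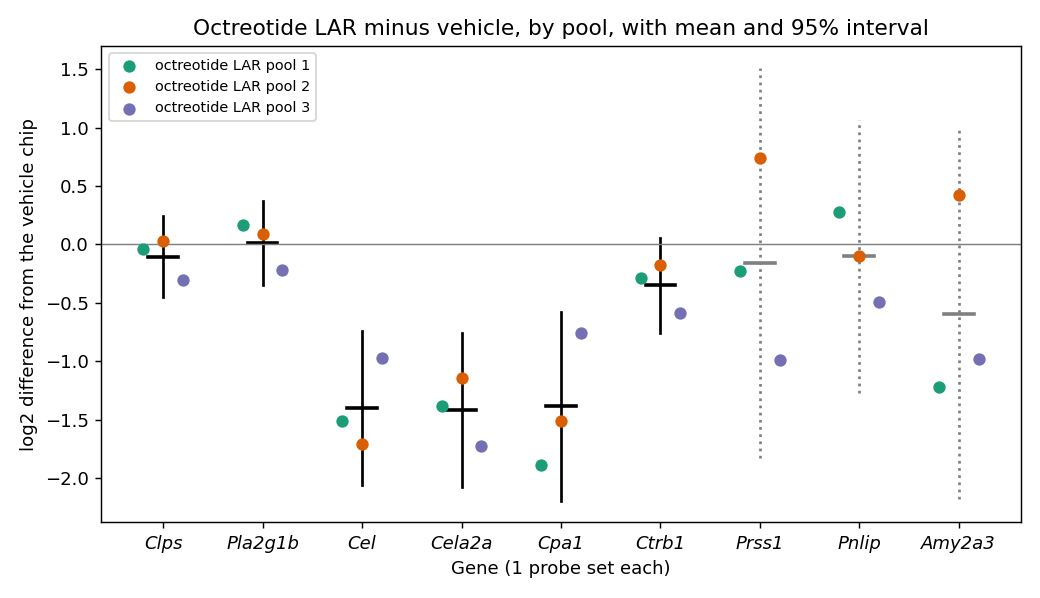
Difference from the vehicle chip on the log2(signal + 16) scale for each octreotide LAR pool (circles), with the mean (bar) and the 95% interval of the limma fit (line); grey dotted lines belong to the dim genes and come from the fit that includes dim probe sets. The intervals of Cel, Cela2a and Cpa1 lie wholly below 0, and those of the other genes include 0.

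The differences of the bright and the middling genes were also read as ratios within each chip, of signal + 16. The log2 ratio of Cela2a to Clps was -6.28 on the vehicle chip and -7.62, -7.46 and -7.70 on pools 1, 2 and 3. That of Cel to Clps was -6.03 against -7.51, -7.77 and -6.70, and that of Cpa1 to Clps was -6.30 against -8.15, -7.84 and -6.76. The vehicle chip had the highest ratio in each case, and the treated mean was lower by a log2 difference of -1.31 for Cela2a, -1.29 for Cel and -1.28 for Cpa1. Against Pla2g1b the same differences were -1.43, -1.41 and -1.40. These directions follow from how the genes were picked, and with 3 chips against 1 an exact two-sided permutation test cannot go below p = 0.25, so the ratios are a description and no test of a difference between the genes is given. The size of a ratio on 1 chip does not compare amounts of RNA. Among the treated pools alone the ratio to Clps spanned from -7.70 to -7.46 for Cela2a, from -7.77 to -6.70 for Cel and from -8.15 to -6.76 for Cpa1.

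**Figure D3:**
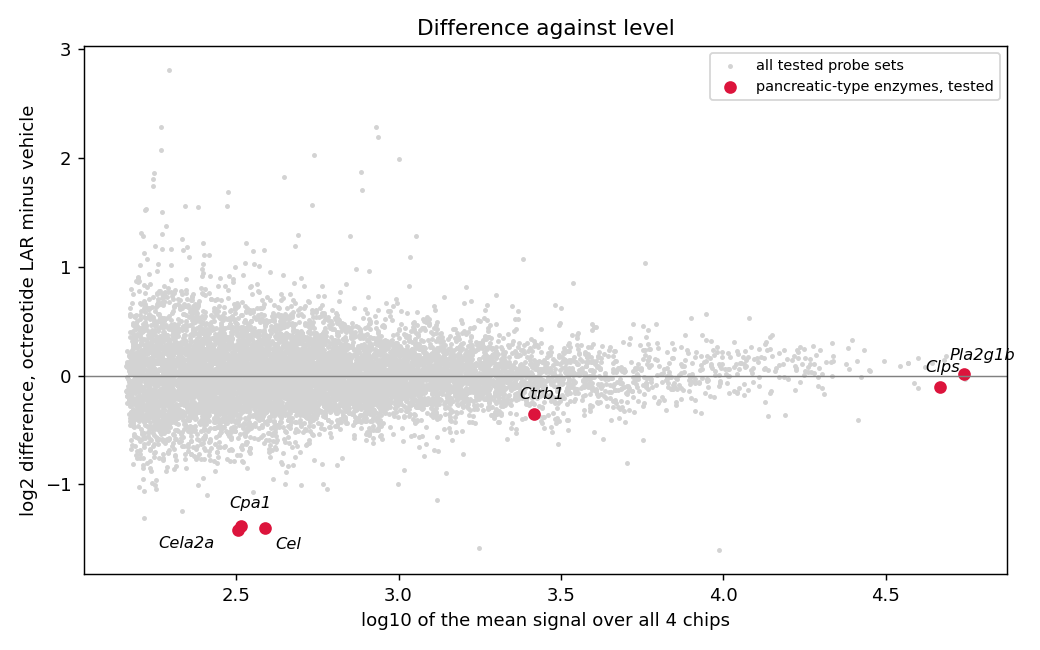
Log2 difference of octreotide LAR minus vehicle against the log10 of the mean signal over all 4 chips, for the 9520 tested probe sets (grey) and the 6 tested genes of the set (red). Cel, Cela2a and Cpa1 lie at the lower edge of the cloud at middling brightness, at -1.38 to -1.42, while Clps and Pla2g1b lie near 0 at its bright end.

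Other products of the exocrine pancreas were taken from a list of which 20 genes were matched. Of these, 16 were too dim for testing. Among them were Cpb1, a carboxypeptidase, with 33.3 on the vehicle chip and 14.0 to 36.6 on the treated pools, and Ctrl, a chymotrypsin-like protease, with 13.8 and 11.7 to 32.1. Prss2, another trypsinogen, had 2.2 and 2.8 to 24.0. Pnliprp1 and Pnliprp2, relatives of pancreatic lipase, had 3.8 and 5.7 on the vehicle chip and at most 55.3 and 25.7 on the treated pools. Ctrc, a chymotrypsin, had 116.2 on the vehicle chip and 61.8, 34.5 and 76.7 on the pools, and Sycn, a protein of zymogen granules, had 110.3 and 72.5, 68.4 and 80.9. Counting all 20 genes, 6 lay below the vehicle chip on every pool and 4 above it. The shares over all 15866 probe sets were 24.0% below and 24.4% above. Thus 16 of the 20 matched genes, out of 28 listed, had a mean log2 value under the 40th percentile of the array. That places their probe sets and does not measure how much RNA these genes had. The 4 tested genes of the list were Cela1, Gp2, Reg1a and Pdia2; all had a fitted log2 difference below 0, 0 of the 4 had an unadjusted p under 0.05, and their median log2 difference was -0.15, where the median of all tested probe sets was -0.003. Reg1a, a secreted lectin-like protein, had 1004.7 and, on the treated chips, 875.6 ± 21.8 (SD, n = 3), or -0.20 on the log2 scale (limma adjusted p = 0.9998). Pdia2, a disulphide isomerase named after the pancreas, had 7997.5 and 7334.9 ± 706 (SD, n = 3), or -0.13 (limma adjusted p = 0.9998). Gp2, a membrane protein of zymogen granules, had 222.5 on the vehicle chip and 109.2, 211.5 and 411.3 on the pools, a higher mean signal with a fitted log2 difference of -0.05. Cela1, an elastase of the same family as Cela2a, had 343.9 on the vehicle chip and 461.3, 263.0 and 231.7 on the pools, on both sides of the vehicle value.

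Among 9 transcription factors and receptors of acinar cells, 7 were tested and 0 had an unadjusted p under 0.05. Ptf1a, the DNA-binding core of PTF1, had 292.6 on the vehicle chip and 200.9, 281.7 and 210.1 on the pools, below the vehicle chip each time. It differed by -0.34 on the log2 scale (95% interval -1.02 to 0.34; limma adjusted p = 0.9998). Bhlha15, also called Mist1, a factor of secretory cells including the chief cell, had 768.8 against 693.8 ± 88.3 (SD, n = 3). Sctr, the secretin receptor, had 1482.6 against 1594.4 ± 103 (SD, n = 3), and Chrm3, a muscarinic receptor, had the next smallest p after Ptf1a, with 236.3 against 298.2 ± 65.7 (SD, n = 3). None of these 3 passed (limma adjusted p = 0.9998 for each).

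Markers of neighbouring tissues were read on the same chips. Parietal and surface mucous cell markers of the oxyntic mucosa were bright, with 39973.9 for Atp4b, the beta subunit of the proton pump, and 21219.6 for the mucin Muc5ac on the vehicle chip. Of the 6 parietal genes tested, 0 passed over all probe sets, and the smallest unadjusted p belonged to the potassium channel Kcnq1, with a log2 difference of -0.58. Of the 6 surface mucous genes, all were above the vehicle chip on every pool, against 24.4% of all 15866 probe sets. Of these 6, 0 passed, with log2 differences of 0.64 for the calpain Capn8 and 0.56 for the trefoil peptide Tff2. Of 10 pancreatic islet genes, 8 were too dim for testing, and their summed signal was 1146.5 on the vehicle chip and 1145.9 to 1430.0 on the treated pools. Glucagon (Gcg) had 5.2 and 5.5 to 11.6. Insulin 2 (Ins2) had 71.7 and 38.9 to 111.4, and insulin 1 (Ins1) had 279.4 and 134.6 to 186.1, or -0.71 on the log2 scale (95% interval -1.46 to 0.04; limma adjusted p = 0.9998). Pancreatic polypeptide (Ppy) had 41.5 on the vehicle chip and 177.2, 123.5 and 156.0 on the pools, above it each time, and was too dim for testing. None of the islet genes was at exactly 0. Isl1, a factor shared by many endocrine cells, had 401.6 and 465.1 to 558.1. Of 5 duct genes, all were tested and 0 passed over all probe sets; Krt19, a keratin of simple epithelia that gastric mucosa also holds, was brighter on every pool, with a treated mean of 15043.9 ± 1378 (SD, n = 3) against 11594.8. Of 6 adipose genes, 3 were tested and 0 had an unadjusted p under 0.05. The summed signal of the 6 was 92.1% to 105% of the vehicle chip. It was led by Lpl, with 5240.7 of the 6033.8 on the vehicle chip. Fabp4, the fatty acid binding protein of adipocytes, was highest on pool 1, at 922.1 against 346.2 on the vehicle chip. Cfd had 216.8 on the vehicle chip and 363.5, 86.3 and 197.3 on the pools.

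Squamous markers, and 2 genes of the intestinal list, rose on the same chips on which Cel, Cela2a and Cpa1 had lower signals. Of 14 squamous forestomach genes, 12 were above the vehicle chip on every treated pool, against 24.4% of all 15866 probe sets. The summed signal of the 14 was 2075.0 on the vehicle chip and 10113.5, 7134.5 and 6246.1 on pools 1, 2 and 3. Of the 11 tested, 6 rose past the threshold over all probe sets, against 0.105% of the 9520 tested probe sets. Among the 6 were Loricrin and Krt10, proteins of cornifying layers, with log2 differences of 2.28 and 1.99 (limma adjusted p = 0.0012 for both). Lgals7 and Sprr3, also among the 6, had vehicle signals of 22.4 and 139.4, under the level of 144.7 required for testing. The vehicle signals of Krt5, Krt14 and Krt15, tested but not called, were under it too. These genes reached testing only through the treated pools, so the count of calls is a description. Of 12 intestinal genes, 3 were above the vehicle chip on every pool and 2 (Muc2 and Slc5a1) below it. The shares over all 15866 probe sets were 24.4% above and 24.0% below. Of the 5 tested, Fabp2 and Lgals4 rose and 3 had a difference below 0, with a median of -0.08. The summed signal was 168% to 206% of the vehicle chip and was led by Lgals4, with 3199.7 on the vehicle chip and 6203.6, 7232.5 and 6344.1 on the pools; Apoa4 and Alpi, markers of absorptive cells, had 13.4 and 13.3 on the vehicle chip and at most 31.4 and 66.0 on the pools. The part of these tissues in the lower signals of the 3 enzymes was not tested.

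**Figure D4:**
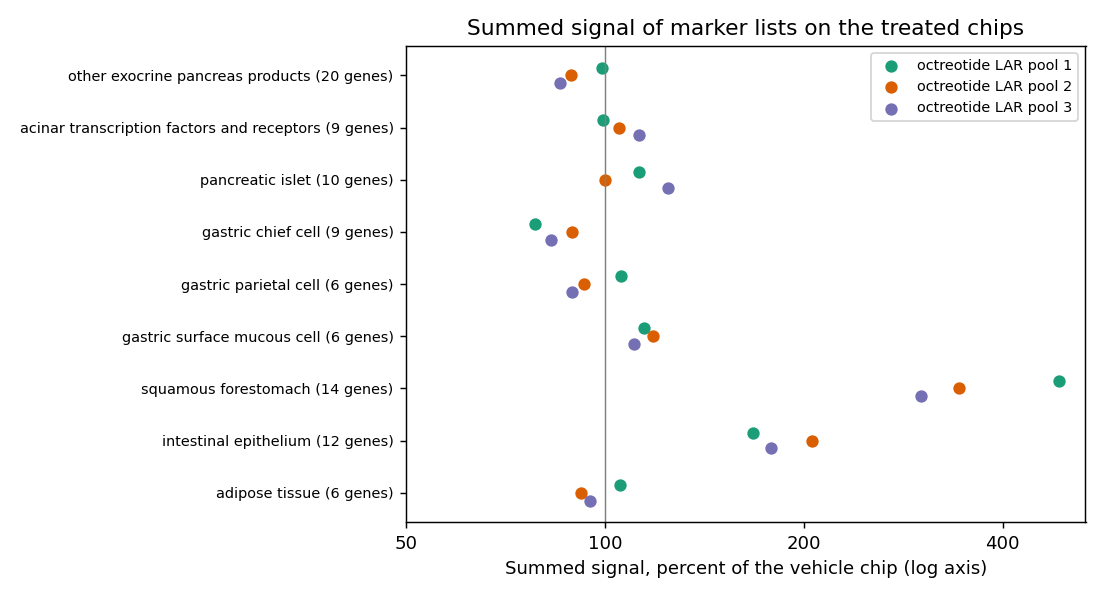
Summed signal of each marker list on the 3 octreotide LAR pools as a percent of its sum on the vehicle chip (log axis, with 100 marking the vehicle chip); each gene counts through its brightest probe set. Squamous forestomach genes stood at 301% to 487%, intestinal genes at 168% to 206%, and the other exocrine pancreas products at 85.5% to 98.8%. A sum is led by its brightest genes. For the other exocrine pancreas products this was Pdia2, with 7997.5 of the 10721.7 on the vehicle chip. For the intestinal genes it was Lgals4, with 3199.7 of the 4875.4 on the vehicle chip. Of the 5 intestinal genes tested, Fabp2 and Lgals4 had a difference above 0 and 3 had a difference below 0.

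The gastric zymogens gave a mixed picture too. The summed signal of 9 chief cell genes was 78.4% to 89.1% of the vehicle chip. Cym encodes chymosin, which clots milk; its signal was 19071.1 on the vehicle chip and 3952.1, 8203.8 and 7560.9 on the pools (log2 difference -1.60, limma adjusted p = 0.070), while Pgc, a pepsinogen, had 56280.8 against 55236.1 ± 6839 (SD, n = 3). Chia, an acidic chitinase, had 31066.5 against 15960.7, 29279.5 and 27607.8 and did not pass. Lipf, the gastric lipase gene, was dim, with 22.1 on the vehicle chip and 79.8 to 112.7 on the pools. A list of other lipid enzymes, mostly lipases and phospholipases with the phospholipid-forming Cept1, had 12 matched genes, of which 7 were tested; 0 were lower and 2 were higher at an unadjusted p under 0.05, and 0 passed over all probe sets. These 2 were phospholipases A2. Pla2g4a, the cytosolic form that releases arachidonic acid, had 584.7 against 805.5 ± 33.9 (SD, n = 3), and Pla2g10, a secreted form, had 913.5 against 1332.8 ± 245 (SD, n = 3). The limma adjusted p was 0.9998 for both, and every treated pool lay above the vehicle chip.

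The genes whose 3 pool differences were most like those of the middling enzymes were found by the root mean square distance on the log2 scale, over 3 treated chips that share the vehicle chip. For Cela2a these were Hdc, the histamine-forming enzyme of enterochromaffin-like cells, at a distance of 0.24, Slc18a2, the vesicular monoamine transporter, at 0.32, and Chgb, a granin of endocrine granules, at 0.47. For Cel they were Usp2, a deubiquitinating enzyme, at 0.38, Kif20a, a mitotic kinesin, at 0.39, and Hdc at 0.44. For Cpa1 they were Capn15 at 0.37, Tle2, a transcriptional corepressor, at 0.42, and Cym at 0.43. Hdc had 3537.3 on the vehicle chip and 1074.6, 1323.2 and 1121.5 on the pools, and was the single one of these neighbours past the threshold (limma adjusted p = 0.0027). Some of the other neighbours were dim on the pools. Kif20a had 260.6 on the vehicle chip and 119.9, 85.4 and 167.7 on the pools. Capn15 had 265.6 on the vehicle chip and 64.3, 120.9 and 207.1 on the pools. Both fell under the level of 144.7 required for testing on some pools, and neither was called (limma adjusted p = 0.9998 for both). Few tested probe sets had differences this low, so these neighbours come from a small field.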

How the data were processed

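The deposited values are linear signal intensities, 1 for each probe set on each chip; how they were summarised is not given in the sources used here. All 4 chips shared 1 lot, 1 wash protocol and 1 hybridisation date, per the file headers, and each had its own fluidics module. Signals were taken as log2(signal + 16) with no further normalization. Probe sets whose mean log2 value lay under the 40th percentile (a signal of 144.7) were left out, leaving 9520. The test was limma 3.58.1, run in R 4.3.3 (trend, two-sided, Benjamini-Hochberg, threshold 0.05), 3 treated chips against 1 vehicle chip, with degrees of freedom of 2 (residual) and 11.5 (prior); the single control is assumed to vary like the treated ones, and the number of chips limits precision. It was checked on simulated data. The planted changes were larger on the log2 scale than the fitted difference of any of the 9 genes, and the simulated control varied like the treated chips. The check therefore does not cover smaller changes or a peculiarity of the single vehicle pool. Names came from the platform annotation, updated by Entrez ID (12748 of 12783 probe sets naming 1 gene matched; 312 named several and 2771 none). A listed gene stands for its brightest probe set. Text names all 9 genes. It also names, for each gene with a log2 difference of at least 1 in size, the 3 nearest genes by pool profile. As examples it names the 1 or 2 genes of a list with the smallest p. Others were chosen after their values were seen. The members and lists were chosen with earlier results of these data known. Alternatives changed the pseudocount, filter, scaling, moderation and set of pools.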

Additional observations from a re-analysis of the deposited data

How the results depend on the processing

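The count of probe sets called over the whole array was 10. It was 0 without the filter on dim probe sets (776 had an unadjusted p under 0.05), 5 with a filter at the 20th percentile, 5 with quantile normalization, 1 without a trend and 5 when chips were centred on their 75th percentile; it ranged from 31 to 55 when a treated pool was left out. Cel, Cela2a and Cpa1 kept their direction under all 10 alternatives and passed in the 3 fits that left out a pool. The 6 within-chip ratios kept their direction under the alternatives tried. Signs turned where values were near 0: Pla2g1b was at -0.021 with quantile normalization and ran from -0.064 to 0.13 when a pool was left out. Over the same 3 fits Prss1 ran from -0.61 to 0.26 and Pnlip from -0.30 to 0.092, while Amy2a3 ran from -1.10 to -0.28, Ctrb1 from -0.44 to -0.23 and Clps from -0.17 to -0.0022, with no sign turned. The cause of these changes was not tested. No paired analysis was possible because the groups share fewer than 2 replicate numbers. The single vehicle chip, the dim signals of Prss1, Pnlip and Amy2a3, and the brightest signals of Clps and Pla2g1b limit what could be seen.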
